A study of Mus musculus with 16 samples.

Results

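The guanylate-binding proteins (GBPs) and immunity-related GTPases (IRGs) are large GTP-hydrolysing proteins whose genes are switched on by interferons, most strongly by interferon-gamma. In mouse cells they gather on the vacuoles of intracellular parasites and bacteria and break them open, so they are known as effectors of cell-autonomous immunity. The 10 genes described here were Gbp2, Gbp3, Gbp5, Gbp6, Irgm1, Irgm2, Igtp, Iigp1, Ifi47 and Tgtp1. They were chosen by symbol as a family, with the deposited differences and p-values of these comparisons already known, so these values are given as a description. Their rows were found by gene symbol, alone or in a comma list, in the authors' deposited table of RNA bound by Igf2bp2, and all 10 symbols were found, on 11 of its 35556 rows.

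The study precipitated RNA with an antibody against Igf2bp2, which binds mRNAs and affects how long they last and how they are translated, or with control IgG, and hybridised it to Affymetrix arrays (RIP-chip). The cells were HL-1, 1 line of mouse atrial cardiomyocytes kept in serum and norepinephrine, and the labels name no interferon treatment. They were transfected at 10 nM with scrambled siRNA or with siRNA targeting Airn (siAirn-001.1), the long non-coding antisense transcript of the Igf2r locus. The 4 groups (siRNA by antibody) held 4 biological replicates each, 16 arrays in all. Each value below is a log2 difference, anti-Igf2bp2 minus IgG, within 1 siRNA, so a positive value means that an RNA was higher in the Igf2bp2 precipitate. Each error is a standard error (SE) that was back-calculated from a row's deposited difference and p-value. A row was called at an adjusted p under 0.05 over all rows. Single-array values were not used here, so neither the levels of these RNAs, nor signal over background, nor the replicates' own values can be shown. As each sample was a whole culture, fewer cells holding an RNA and less of it per cell cannot be told apart.

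Some rows listed more than 1 gene. Only 6 of the 11 rows carried a single symbol (Gbp2, Gbp3, Gbp5, Gbp6, Irgm1 and Iigp1). Irgm2 and Igtp shared a row, Ifi47 shared one with the olfactory receptor Olfr56, a further Gbp5 row also listed Gbp1 (now Gbp2b), and both Tgtp1 rows also listed Tgtp2 and Gm12185. The row named Gbp6 may not measure the gene that RefSeq (GRCm38.p6) now calls Gbp6. RefSeq places Gbp6 on chromosome 5, with Mpa2l as an older name, and the table lists Mpa2l on 2 other rows. The array identifier of the row named Gbp6 (10496569) lies between those of the Gbp1 and Gbp5 row (10496555) and of Gbp3 (10496580). RefSeq places Gbp5 and Gbp3 on chromosome 3. The 2 Mpa2l rows are given below among the other guanylate-binding rows.

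Most of these genes also share promoter sequence. They were chosen as a family switched on by interferons, so the share with interferon elements is not independent of that choice. The counts below are a description only. Interferons act through transcription factors, Irf1 among them, that recognise the interferon-stimulated response element (ISRE) and the gamma-activated site (GAS). RefSeq promoters of GRCm38.p6 were taken from 250 bases before to 50 after a transcription start. They were matched by symbol and searched for 8 of the genes (9 promoters, as Gbp3 has 2). No promoter of Gbp6 or Iigp1 was searched, so the counts below leave both genes out. The ISRE core was searched on both strands as GAAA, any 2 bases and GAAA. It stood in a promoter of 7 of these 8 genes, and in 7 of the 9 promoters, against 3.44% of all 32851 promoters. The GAS core, TTC, any 3 bases and GAA, is the same pattern on both strands. It stood in promoters of 4 of the 8 genes (Gbp5, Irgm2, Igtp and Tgtp1), and in 4 of the 9 promoters, against 8.3% of all promoters. Both cores together stood in these 4 and in 0.454% of all promoters, and no ISRE overlapped a GAS in them. The Ifi47 promoter and the second Gbp3 promoter held neither. The windows below span each ISRE with 25 bases on either side, written 5′ to 3′ on the gene's strand with both cores in capitals, to show how the copies resemble each other.
Gbp2: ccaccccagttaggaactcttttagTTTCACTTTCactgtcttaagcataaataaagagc
Gbp3: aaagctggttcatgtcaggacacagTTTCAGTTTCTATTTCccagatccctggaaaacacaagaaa
Gbp5: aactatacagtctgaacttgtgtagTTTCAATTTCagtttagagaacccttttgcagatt
Irgm1: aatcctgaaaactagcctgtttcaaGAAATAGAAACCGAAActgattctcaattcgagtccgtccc
Irgm2: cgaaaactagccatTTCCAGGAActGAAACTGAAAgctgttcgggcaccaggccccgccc
Igtp: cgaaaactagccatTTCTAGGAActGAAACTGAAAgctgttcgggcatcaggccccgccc
Tgtp1: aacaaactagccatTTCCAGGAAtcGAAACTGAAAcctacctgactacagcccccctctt
Their positions in GRCm38.p6 were chr3:142620579-142620638 for Gbp2, chr3:142559974-142560039 for Gbp3, chr3:142496744-142496803 for Gbp5, chr11:48871410-48871475 for Irgm1, chr11:58214888-58214947 for Irgm2, chr11:58199497-58199556 for Igtp and chr11:48992289-48992348 for Tgtp1. Irgm1 and Tgtp1 lie on the minus strand and the others on the plus strand. In Gbp3 and Irgm1, 2 ISRE matches overlap into 1 longer run, which reads on the opposite strand in Gbp3 and on the gene's own strand in Irgm1. In Irgm2, Igtp and Tgtp1 a GAS ends 2 bases before the ISRE begins. The Irgm2 and Igtp windows were identical at 58 of 60 positions, and these are also the genes that share a row of the table. The Tgtp1 window was identical to that of Irgm2 at 40 of 60 positions. A match is a description of letters and says nothing of a factor bound there, and RIP-chip does not measure promoters.

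The whole promoters are shown for Gbp3, the row called higher with the Airn siRNA, and for Igtp, on the row called higher with the scrambled siRNA. The former spans chr3:142559794-142560093 and the latter chr11:58199306-58199605, both on the plus strand, with the same capitals.
Gbp3: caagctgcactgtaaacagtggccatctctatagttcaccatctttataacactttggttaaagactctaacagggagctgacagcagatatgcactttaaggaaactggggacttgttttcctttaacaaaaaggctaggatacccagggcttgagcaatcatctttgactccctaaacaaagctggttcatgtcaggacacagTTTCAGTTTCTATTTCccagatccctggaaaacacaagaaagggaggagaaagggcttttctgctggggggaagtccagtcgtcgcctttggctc
Igtp: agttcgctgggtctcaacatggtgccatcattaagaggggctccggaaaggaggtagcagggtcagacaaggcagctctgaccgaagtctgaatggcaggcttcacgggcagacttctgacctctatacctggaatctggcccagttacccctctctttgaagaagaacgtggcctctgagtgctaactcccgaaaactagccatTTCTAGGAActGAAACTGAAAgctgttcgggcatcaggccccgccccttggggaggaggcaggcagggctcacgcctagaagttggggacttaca
In Gbp3 the paired ISRE begins 45 bases before the transcription start. In Igtp the GAS begins 45 and the ISRE 34 bases before it.

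With the scrambled siRNA, most GTPase rows were on the lower side of the Igf2bp2 precipitates, and 1 row was called in each direction. In the authors' deposited table, 8 of the 11 rows were below 0, from -1.15 to 0.81 with a median of -0.51. The median of all rows was -0.10, and 46.2% of all rows were above 0, so most of the table was also on the lower side. The table called 37.3% of all rows in this comparison, 20.4% higher and 16.8% lower, and 2 of 11 is below that share. The shared Irgm2 and Igtp row was called higher and the Gbp5 row lower. With the Airn siRNA the median of the 11 rows was 0.19 in the authors' deposited table, 6 rows were above 0, and Gbp3 was the row called, on the higher side. In that comparison 1.05% of all rows were called, 0.63% higher and 0.425% lower, and nothing about the group is read from 1 call. The median of all rows was -0.06, with 47.5% above 0.

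**Figure D1:**
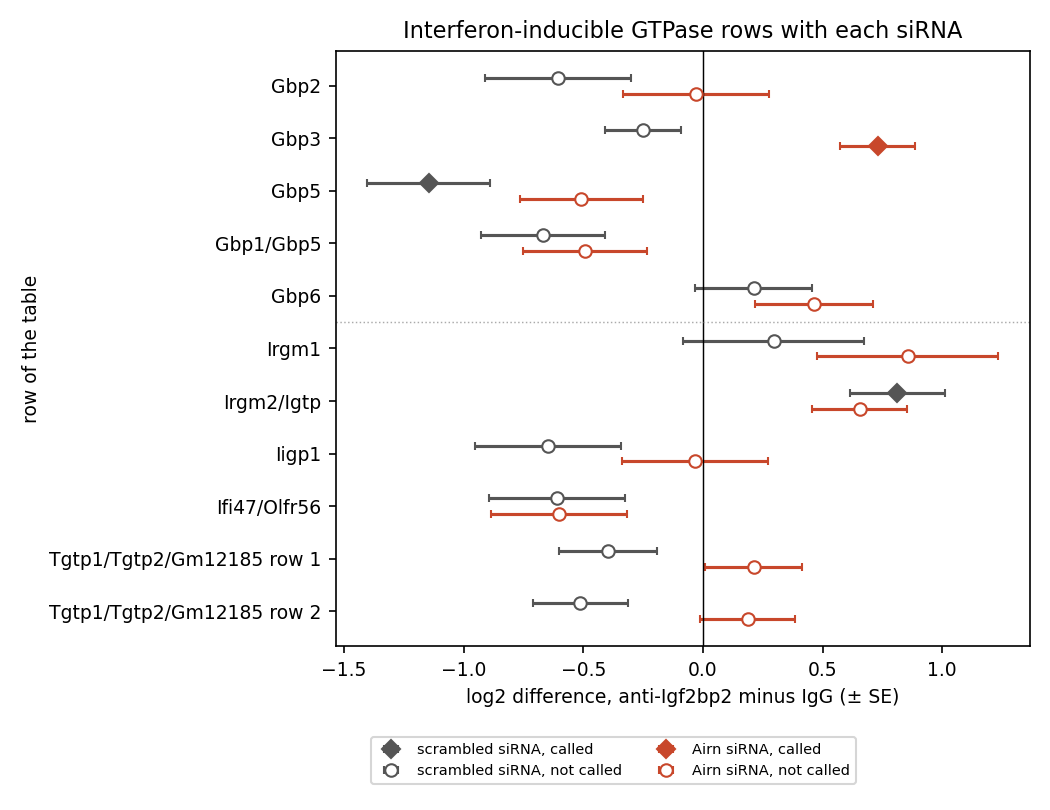
Log2 difference, anti-Igf2bp2 minus IgG (horizontal axis) for the 11 rows, with the scrambled siRNA in grey and the Airn siRNA in red; bars are ± SE, filled diamonds are called rows, and the dotted line parts guanylate-binding rows (above) from immunity-related GTPase rows. Gbp5 was called at -1.15 and Irgm2/Igtp at 0.81 with the scrambled siRNA, and Gbp3 at 0.73 with the Airn siRNA.

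Among the guanylate-binding rows, Gbp5 and Gbp3 carried the calls. Gbp5 is known in mouse macrophages for promoting inflammasome assembly. In the authors' deposited table its own row stood at -1.15 ± 0.26 with the scrambled siRNA (2.21-fold lower, adjusted p = 0.01002) and at -0.51 ± 0.26 with the Airn siRNA (adjusted p = 0.17). The row listing both Gbp1 and Gbp5 was on the same side, at -0.67 ± 0.26 (adjusted p = 0.052) and -0.49 ± 0.26 (adjusted p = 0.183), and the authors' deposited table did not call it. Both Gbp5 rows were therefore below 0 with each siRNA, and they lay 0.48 apart with the scrambled and 0.02 apart with the Airn siRNA.

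Gbp3 had opposite signs with the 2 siRNAs. It is a neighbour of Gbp2 and Gbp5 in the same gene cluster. In the authors' deposited table Gbp3 stood at -0.25 ± 0.16 with the scrambled siRNA (adjusted p = 0.198) and at 0.73 ± 0.16 with the Airn siRNA (1.66-fold higher, adjusted p = 0.0457). Its SE of 0.16 was the smallest of the 11 rows, whose errors reached 0.38 for Irgm1, and the median SE of all rows was 0.25. The call lay close to the threshold and was lost when p-values were adjusted over single-symbol rows alone (adjusted p = 0.053).

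Gbp2 and Gbp6 were not called. Gbp2, which is recruited to parasite vacuoles in mouse cells, stood, in the authors' deposited table, at -0.60 ± 0.31 with the scrambled siRNA (adjusted p = 0.117) and at -0.03 ± 0.31 with the Airn siRNA (adjusted p = 0.946). The row named Gbp6 stood, in the authors' deposited table, at 0.21 ± 0.25 (adjusted p = 0.48) and 0.46 ± 0.25 (adjusted p = 0.185), the only guanylate-binding row above 0 with both siRNAs.

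Among the immunity-related GTPases, the 2 rows of the regulatory IRGM genes stood above 0 with the scrambled siRNA. The 4 effector rows stood below 0 there, and only the Irgm2 and Igtp row was called. The IRGM proteins (Irgm1, Irgm2 and Igtp, the last also called Irgm3) sit on the cell's own membranes and hold the effector GTPases inactive there. The shared Irgm2 and Igtp row stood, in the authors' deposited table, at 0.81 ± 0.20 with the scrambled siRNA (1.76-fold higher, adjusted p = 0.0126) and at 0.66 ± 0.20 with the Airn siRNA (1.57-fold, adjusted p = 0.0757). Irgm1, which is also tied to autophagy, stood, in the authors' deposited table, at 0.30 ± 0.38 (adjusted p = 0.524) and 0.86 ± 0.38 (adjusted p = 0.135). Irgm1 thus had the highest value of the 11 rows with the Airn siRNA, but its error was also the largest and it was not called.

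No effector row was called in either comparison. Iigp1 (also Irga6), which coats parasite vacuoles in mouse cells, stood, in the authors' deposited table, at -0.65 ± 0.31 (adjusted p = 0.0952) with the scrambled and -0.04 ± 0.31 (adjusted p = 0.935) with the Airn siRNA. Ifi47 (also Irgd), on the row shared with Olfr56, stood, in the authors' deposited table, at -0.61 ± 0.28 (adjusted p = 0.0939) and -0.60 ± 0.28 (adjusted p = 0.153). Tgtp1 (also Irgb6) is a further effector of this class. Its first row stood, in the authors' deposited table, at -0.40 ± 0.20 (adjusted p = 0.123) and 0.21 ± 0.20 (adjusted p = 0.434). Its second row stood, in the authors' deposited table, at -0.51 ± 0.20 (adjusted p = 0.0522) and 0.19 ± 0.20 (adjusted p = 0.479). The Tgtp1 rows, which share all 3 symbols, were thus below 0 with the scrambled and above 0 with the Airn siRNA, while the Ifi47 row had nearly the same value with both. Gm12185 also had a row of its own, which stood, in the authors' deposited table, below 0 with both siRNAs, at -0.64 (adjusted p = 0.0808) and -0.36 (adjusted p = 0.346).

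**Figure D2:**
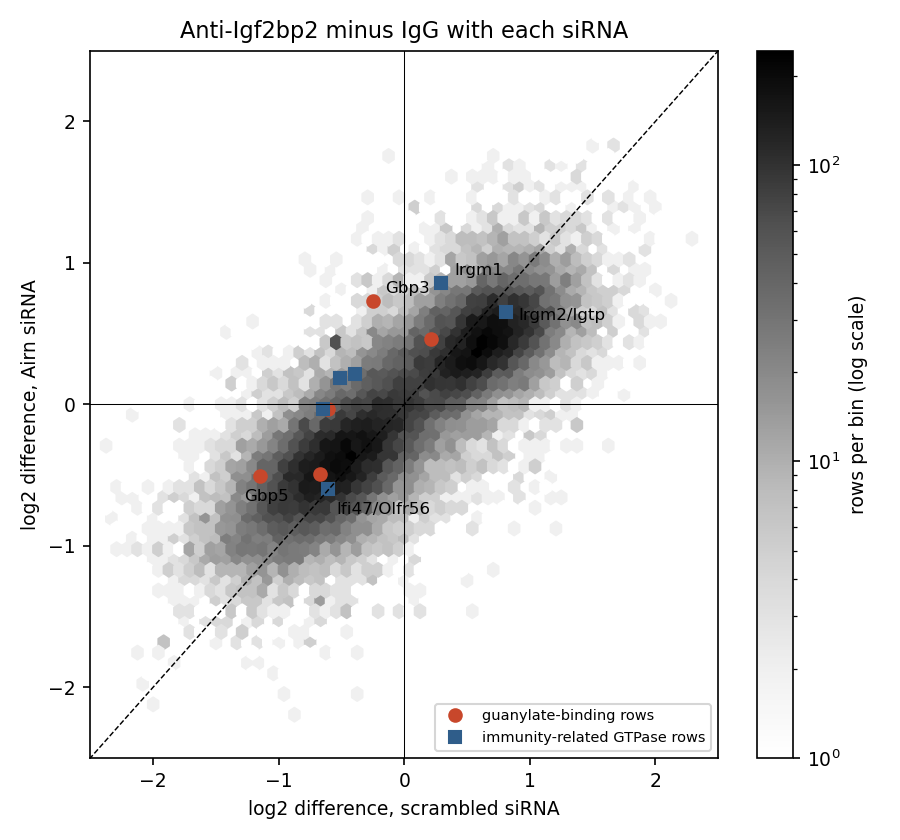
Log2 difference with the scrambled siRNA (horizontal axis) against that with the Airn siRNA (vertical axis) for the rows of the table within the plotted range, binned in grey by number of rows on a log scale, with guanylate-binding rows as red circles, immunity-related GTPase rows as blue squares and the dashed line marking equal values. Gbp3 (-0.25 and 0.73) lies in a thinly filled area above the main cloud, and the Ifi47/Olfr56 row (-0.61 and -0.60) lies on the line.

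Averaging both siRNAs gave smaller errors and 4 called rows, 1 higher and 3 lower. This average was computed from the deposited values with recovered errors, and it called 58.2% of all rows, 29.2% higher and 29.0% lower, so 4 of 11 is below the background. The Irgm2 and Igtp row averaged 0.73 ± 0.14 (95% interval 0.44 to 1.03, adjusted p = 0.00203). The averages of Gbp5 (-0.83 ± 0.18, adjusted p = 0.00338), of the Gbp1 and Gbp5 row (-0.58 ± 0.18, adjusted p = 0.0155) and of the Ifi47 row (-0.60 ± 0.20, adjusted p = 0.0197) were lower. Gbp3 (0.24 ± 0.11, adjusted p = 0.0737) and Irgm1 (0.58 ± 0.27, adjusted p = 0.0727) were not called in the average, and the averages of Tgtp1 were the closest to 0 (-0.09 ± 0.14 and -0.16 ± 0.14). Whether Gbp3 and Irgm1 were called depended on centring. With each comparison centred on its median over all rows, Gbp3 (0.32, adjusted p = 0.0253) and Irgm1 (0.66, adjusted p = 0.0477) were called higher, which made 6 called rows, 3 in each direction, with 19563 of all rows called.

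The difference between the siRNAs (Airn minus scrambled) asked whether these RNAs differed in their enrichment once Airn was targeted, and none of the 11 rows was called. The test called 0 of 35556 rows (0.0%), while 1217 rows (3.42%) had an unadjusted p under 0.05. The median change of the 11 rows was 0.57 and 10 of them were above 0, while the median of all rows was -0.01 with 49.3% above 0. The change shares the scrambled arrays with the first comparison. Of all 19113 rows below 0 with the scrambled siRNA, 70.0% had a positive change, with a median of 0.17, and so had 8 of 8 GTPase rows. Of the rows above 0, 25.2% had a positive change, and so had 2 of 3 GTPase rows (Gbp6 and Irgm1).

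Gbp3 had the largest change of the 11 rows, 0.98 ± 0.22 (95% interval 0.51 to 1.45, 1.97-fold, adjusted p = 0.91). Its unadjusted p ranked 16 among all rows, and 650 rows had a higher change. The second Tgtp1 row (0.70 ± 0.28, interval 0.10 to 1.30) was the other one whose unadjusted 95% interval lay above 0, with an adjusted p of 0.998. The first Tgtp1 row (0.61 ± 0.29, interval -0.004 to 1.22), Gbp5 (0.64 ± 0.36, interval -0.13 to 1.41), Iigp1 (0.61 ± 0.43, interval -0.30 to 1.53) and Gbp2 (0.57 ± 0.43, interval -0.34 to 1.49) had changes of similar size with wider intervals.

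The other rows had smaller or less certain changes. Irgm1 (0.56 ± 0.53) had an interval from -0.57 to 1.69, which allows a lower as well as a higher value. Gbp6 stood at 0.25 ± 0.35 and the Gbp1 and Gbp5 row at 0.18 ± 0.37. The change of the Ifi47 row was 0.01 ± 0.40 (interval -0.85 to 0.86), and that of the Irgm2 and Igtp row was -0.16 ± 0.28 (interval -0.75 to 0.44), the only one below 0. These intervals do not show that the 2 siRNAs gave the same enrichment.

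**Figure D3:**
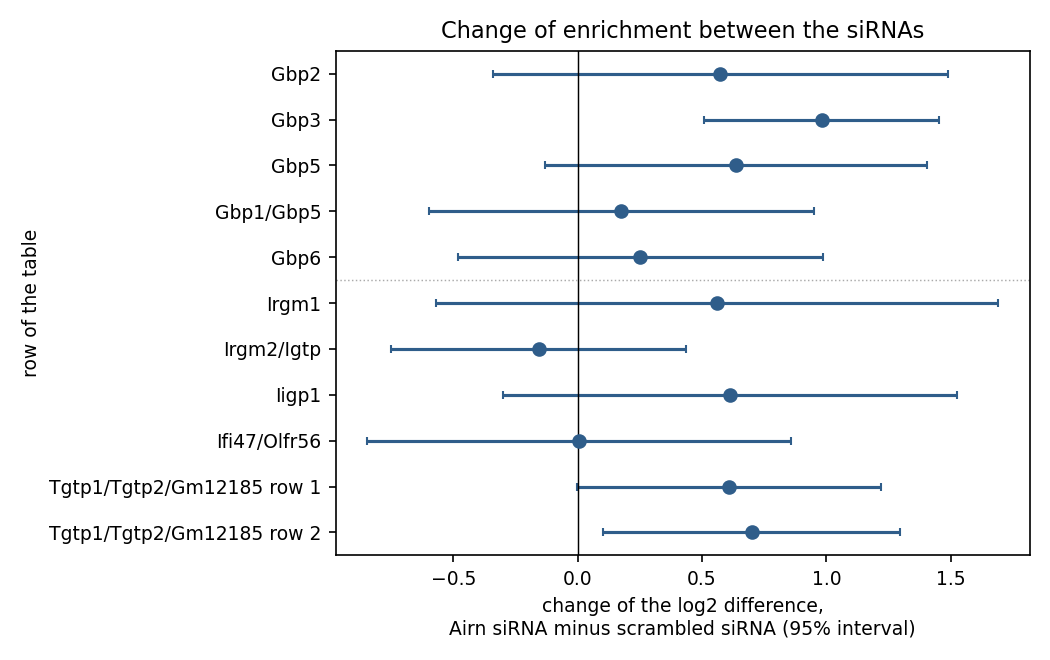
Change of the log2 difference, Airn siRNA minus scrambled siRNA (horizontal axis), for the 11 rows; points are the change and bars its 95% interval, not adjusted for the number of rows. The intervals of Gbp3 (0.51 to 1.45) and of the second Tgtp1 row (0.10 to 1.30) lie above 0, and no row was called after adjustment over the table.

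Other genes of the GBP and IRG families stood on the same side as most of the 11 rows with the scrambled siRNA. Of 4 other guanylate-binding genes measured, each by 1 row, 1 was called lower and none higher by the authors' deposited table for the scrambled siRNA (median -0.62), and none was called with the Airn siRNA (median -0.17). Gbp9 was the called one of the 4 (-0.83 ± 0.22, adjusted p = 0.0147), and it stood, in the authors' deposited table, at -0.45 with the Airn siRNA (adjusted p = 0.155). Gbp8 stood, in the authors' deposited table, at -0.55 and 0.11 and Gbp4 at -0.69 and -0.47. The row listing Mpa2l with Gbp10, Gbp11 and Gbp8 stood, in the authors' deposited table, at -0.16 and 0.39. A second Mpa2l row, shared with Gbp11, stood, in the authors' deposited table, at -0.85 (adjusted p = 0.0459) and -0.02 (adjusted p = 0.969), so it was also called lower with the scrambled siRNA. With it, 2 of 5 rows were called lower. Over all rows the share called lower with the scrambled siRNA was 16.8%, and nothing is read from so few calls. All 5 rows had a positive change, with a median of 0.55, and none was called in the change. All 5 were below 0 with the scrambled siRNA, where 70.0% of all rows had a positive change.

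The other immunity-related GTPases had 2 of 9 measured members called lower and none higher by the authors' deposited table for the scrambled siRNA (median -0.59), and none called with the Airn siRNA (median -0.19). The called rows were that of 9930111J21Rik1, shared with 9930111J21Rik2 and Gm5431 (-0.85, adjusted p = 0.0405), and that of Gm5431 alone (-0.79, adjusted p = 0.0447), as the authors' deposited table gives them. With the Airn siRNA they stood, in the authors' deposited table, at 0.13 and -0.65, so the rows that list Gm5431 had opposite signs there. Irgc1 stood, in the authors' deposited table, at -0.44 and -0.35, not called. As 16.8% of all rows were called lower with the scrambled siRNA, 2 of 9 is near that share.

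The called genes of interferon signalling were higher with either siRNA. Of the 11 GTPase rows, 8 were below 0 with the scrambled siRNA and 6 were above 0 with the Airn siRNA. Gbp3 and both Tgtp1 rows were below 0 with the former and above 0 with the latter. Gbp6, Irgm1 and the Irgm2 and Igtp row were above 0 with both, and the remaining rows were below 0 with both. Of 10 genes of the interferon-gamma receptor and its signal transduction, 6 were called higher by the authors' deposited table for the scrambled siRNA and none lower (median 0.58), and 1 was called higher with the Airn siRNA (median 0.57). The receptor chains Ifngr1 (0.95 ± 0.19, adjusted p = 0.00762) and Ifngr2 (0.79 ± 0.23, adjusted p = 0.0221) and the kinase Jak2 (0.92 ± 0.24, adjusted p = 0.0144) were among those called by the authors' deposited table for the scrambled siRNA. With the Airn siRNA the called gene was Irf1, a transcription factor that acts on ISREs. Irf1 stood, in the authors' deposited table, at 0.41 (adjusted p = 0.119) with the scrambled and 1.02 (adjusted p = 0.0407) with the Airn siRNA. A less precise Irf1 row stood, in the authors' deposited table, at -0.22 and -0.33 and was not called. Of 7 negative regulators, 3 were called higher with the scrambled siRNA and none with the Airn siRNA (medians 0.44 and 0.58), among them the phosphatase Ptpn2 (1.03, adjusted p = 0.00624), of which a second, less precise row stood, in the authors' deposited table, at -0.35 and was not called. The other regulators were divided: Usp18 stood at 0.44, while Socs1 (-0.64, adjusted p = 0.0915), Ptpn6 (-0.41, adjusted p = 0.143) and Socs3 (-0.24, adjusted p = 0.283) stood below 0 in the authors' deposited table for the scrambled siRNA. Socs1 was called lower in the average of both siRNAs (-0.57 ± 0.21, adjusted p = 0.0303).

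The machinery that the GTPases work with was mostly on the higher side with the scrambled siRNA, with which 20.4% of all rows were called higher and 16.8% lower. The autophagy conjugation system, which is needed to place GBPs and IRGs on vacuoles in mouse cells, had 11 of 14 genes called higher, none lower, by the authors' deposited table (median 0.74). Atg3 (1.28), Atg5 (1.16) and Atg4b (1.14) were among them, and so was Gabarapl2 (1.47), of which a less precise row stood, in the authors' deposited table, at -0.77 and was not called. The list of protein prenylation, the attachment of a lipid that some GBPs carry, had 7 of 10 genes called higher by the authors' deposited table (median 0.75). Zmpste24 had the highest value (1.32, adjusted p = 0.00547), but it does not itself attach the lipid, and neither do all others of the list. Pggt1b was among the genes not called (-0.08, adjusted p = 0.765, and 0.14 with the Airn siRNA). Ggps1, which makes the geranylgeranyl donor, was called by the authors' deposited table for both siRNAs (0.90, adjusted p = 0.0069, and 0.94, adjusted p = 0.0276). The dynamin family outside the Mx genes, GTPases distantly related to the GBPs, had 6 of 10 called higher, such as Opa1 (1.10), and 2 lower, including Dnm3 (-0.92), in the authors' deposited table (median 0.69).

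Other interferon-inducible or inflammatory genes were divided. The shares of all rows called with the scrambled siRNA were 20.4% higher and 16.8% lower. Antigen presentation had 6 of 16 genes called higher by the authors' deposited table for the scrambled siRNA and none lower (median 0.37), including the transporter genes Tap1 (0.72) and Tap2 (0.53), Tapbp (0.97) and B2m (0.61). The inflammasome list had a median of -0.28 and 1 of 8 genes called by the authors' deposited table, the adaptor Pycard (1.18, adjusted p = 0.0112). Chemokines and enzymes induced by interferon-gamma had a median of -0.21 and 1 of 7 called by the authors' deposited table, the lysosomal reductase Ifi30 (0.91, adjusted p = 0.0274). Cxcl10 stood, in the authors' deposited table, at -0.05 and 0.56 (adjusted p = 0.834 and 0.0929) and Cxcl11 at -0.64 and -0.83 (adjusted p = 0.0842 and 0.0917). With the Airn siRNA, Irf1 and Ggps1 were the 2 genes called among the 95 measured in the 10 lists, while 1.05% of all rows were called. No gene of the lists was called in the change, by the recovered test.

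**Figure D4:**
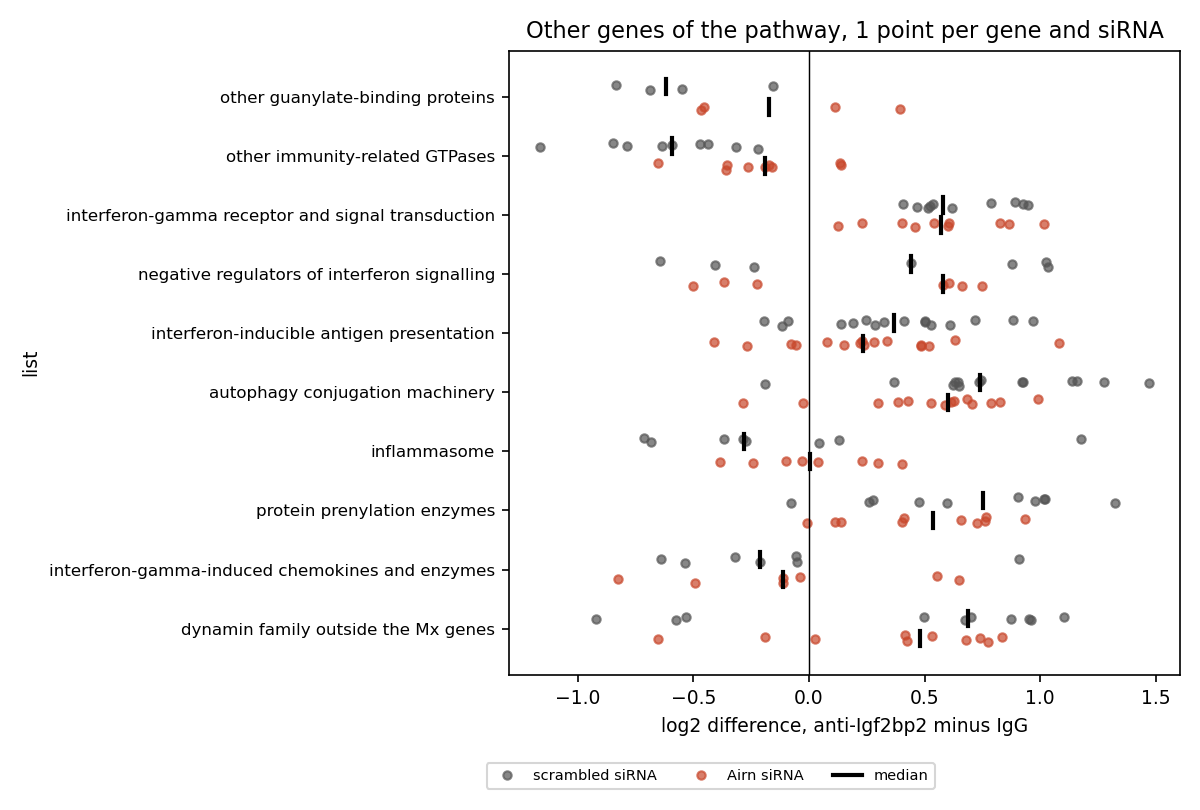
Log2 difference, anti-Igf2bp2 minus IgG (horizontal axis) for the other genes of the pathway by list, with 1 point per gene and siRNA (scrambled in grey, Airn in red; vertical scatter within a list carries no meaning) and black bars at the medians. With the scrambled siRNA the medians of the other guanylate-binding proteins (-0.62) and immunity-related GTPases (-0.59) lie below 0, and that of the signal transduction list (0.58) lies above it.

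Markers of the labelled cell type and of other cell types were read on the same scale, which shows enrichment and not level, so the label itself could not be tested. Cardiomyocyte markers had 6 of 12 called higher by the authors' deposited table for the scrambled siRNA and none lower (median 0.50), and macrophage and leukocyte markers had 1 of 10 called higher (Cd68) and 4 lower (median -0.63). Their medians with the Airn siRNA were 0.55 and -0.34. Endothelial markers had 2 of 6 called lower (median -0.40) and fibroblast markers 1 of 6 called in each direction (median -0.21) by the authors' deposited table for the scrambled siRNA. Over all rows, 20.4% were called higher and 16.8% lower with that siRNA. The GTPases are strongly expressed in activated macrophages. With the scrambled siRNA most GTPase rows stood below 0, on the side of the macrophage and leukocyte median. The endothelial and fibroblast medians and the median of all rows (-0.10) were on that side too. With the Airn siRNA the median of the GTPase rows was 0.19, on the other side from the macrophage and leukocyte median (-0.34). Whether RNA of macrophages had a part in these values was not tested.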

How the data were processed

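Per the labels' protocols, RNA from Igf2bp2 or IgG precipitates (Magna RIP kit) of siRNA-transfected HL-1 cells was extracted with Trizol and hybridised as biotinylated cRNA to Affymetrix arrays. The authors' deposited table holds, per the file headers and for each of 35556 rows and each siRNA, a difference between anti-Igf2bp2 and IgG, taken as log2 from its range and wording, with a p-value and an adjusted p-value. The sources used here do not give the software, array normalization, statistical model or genome build. Applying the Benjamini-Hochberg method to the p-value columns gave the authors' adjusted p-values to within 0.00023 for rows with p of 0.001 or more.

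From these, each row's SE was recovered with the single number of degrees of freedom (16.14) that gave equal errors in both comparisons (median disagreement 0.0551% over 21864 rows). The change and the average of the 2 differences were tested against a t distribution with these errors, taken as independent, and adjusted over all rows. The recovery was tested on simulated arrays fitted with limma 3.58.1 in R 4.3.3. Other steps used Python 3.11.15 and scipy 1.17.1. The number of arrays limits the precision.

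The members and the lists were chosen with earlier results of these data known. All member rows were named. From each of 10 lists up to 4 called genes with the largest differences in a comparison, or the 2 smallest p-values where there was no call, could be named, with Irf1 always; 1 further gene of the rule is not reported here. Other genes were named where a count of 5 or fewer or a second row needed it, after their values were seen. A gene with several rows was represented by its row with the smallest SE. Adjustment over single-symbol rows, centring, a stricter threshold, single-symbol member rows, correlated errors, 12 degrees of freedom and means over a gene's rows were tried as alternatives.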

Additional observations from a re-analysis of the deposited data

How the results depend on the processing

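The direction of all called GTPase rows was kept under the alternatives run, in which 188 of 202 values kept their side of the threshold and their sign. With the adjustment limited to single-symbol rows, 1 GTPase row was called with the scrambled siRNA in place of 2 (10305 rows called in all in place of 13248), 0 in place of 1 with the Airn siRNA (Gbp3, adjusted p = 0.053, with 36 rows called in all in place of 375) and 1 in place of 4 in the average (15074 rows in all in place of 20682); without this adjustment, the single-symbol rows held 1 call with the scrambled siRNA and 1 in the average, because the other called rows are shared. At an adjusted p under 0.01, 0 GTPase rows were called with either siRNA (1305 and 16 of all rows) and 2 in the average (10269 of all rows). With an assumed correlation of -0.3 between the errors, 7 GTPase rows, 4 higher and 3 lower, and 24416 of all 35556 rows were called in the average. Centring moved the values by the medians of all rows (-0.10 and -0.06) and gave 6 GTPase calls in the average, 3 in each direction (19563 rows in all), with Gbp3 (adjusted p = 0.0253) and Irgm1 (adjusted p = 0.0477) gained. It turned the uncalled Gbp2 and Iigp1 values with the Airn siRNA to 0.027 and 0.022 and the change of the Ifi47 row to -0.036, and it raised the share of higher calls among all rows from 54.9% to 68.8% with the scrambled and from 59.7% to 80.1% (1181 rows called) with the Airn siRNA. The change called 0 GTPase rows under all 7 alternatives, and for Gbp3 its adjusted p ranged from 0.159 (assumed correlation of 0.3, 2 of all rows called) to 1.0 (correlation of -0.3). With means over a gene's rows, 1 list gene in place of 2 was called with the Airn siRNA, since the Irf1 rows differ in sign. No paired analysis was possible because the table holds comparisons and no array values, and leaving out replicates was not run for the same reason.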

Other observations

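By Euclidean distance over the 2 comparisons, the 5 single-symbol genes nearest to the median pair of the 11 GTPase rows (-0.51 with the scrambled and 0.19 with the Airn siRNA) were Ces1b (-0.50 and 0.20), Unc80 (-0.49 and 0.19), Cyp2c37 (-0.50 and 0.15), Gpr65 (-0.55 and 0.18) and Cabp4 (-0.48 and 0.16), in the authors' deposited table. Likeness over 2 values is a loose measure.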
